A study of Mus musculus with 33 samples.

Results

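The B lineage genes described here were 9 of the 31054 features counted in the series: Ms4a1, Cd79a, Cd79b, Cd22, Pax5, Ebf1, Cr2, Ly6d and Fcmr. They were chosen by symbol, with earlier results of these libraries known, and their levels in the regulatory T cell (Treg) libraries are therefore given as a description. Their level was measured in counts scaled to library size (CPM) by bulk RNA-seq of sorted mouse cells, in 33 libraries from 11 subsets with 3 libraries each. Tregs made up 7 of the subsets.

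The mice were DEREG mice on a C57BL/6 background, which carry a transgene for the diphtheria toxin receptor and EGFP under the Foxp3 promoter, so that Tregs were sorted as CD4+GFP+ cells. Tolerant mice had received 4000 islet equivalents of porcine neonatal islet cell clusters (NICC) under the renal capsule, with repeated doses of 500 µg of the anti-CD154 antibody MR-1 in the first week and a single dose of 500 µg of CTLA4-Fc on the day of transplantation, and cells were taken at day 100. Naive mice had no transplant and no treatment. From spleen (SP), SP/naive Tregs came from naive mice and SP/CD127-/lo and SP/CD127hi Tregs from tolerant mice, the last 2 subsets separated by staining for CD127, the IL-7 receptor alpha chain. Graft Tregs came from the NICC graft of tolerant mice. DLN/naive Tregs came from lymph nodes of naive mice, and DLN/CD127-/lo and DLN/CD127hi Tregs from the graft-draining lymph nodes (DLN) of tolerant mice. The other 4 subsets were splenic CD4+Foxp3- T cells and splenic CD45+CD4- cells, each from naive and from tolerant mice. The methods describe a single-drop sort of Tregs for high purity on DAPI, CD4, GFP and CD127, and name no gate against B cells. They describe pools of several mice per library, but list no more naive mice per tissue than a single pool would hold, so the 3 naive libraries of a subset may be parts of the same pool and their spread may be technical. They give female mice for the naive lymph nodes and male mice for the tolerant group, so that sex and tolerance cannot be told apart in DLN comparisons with DLN/naive Tregs.

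B cells recognise antigen through a membrane immunoglobulin that signals through the Cd79a and Cd79b chains. Their identity is set up by the transcription factors Ebf1 and Pax5. Cr2 (CD21) is a complement receptor that lowers the threshold of that signal, Cd22 is an inhibitory lectin, Fcmr is a receptor for IgM, Ms4a1 encodes CD20, and Ly6d is a small surface protein that marks early B lineage commitment. None of these genes is part of the usual description of a CD4+ Treg. In a bulk library, fewer B lineage cells and less RNA per cell cannot be told apart.

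In GRCm38, Fcmr lies at chr1:130865669-130880791 and Cr2 at chr1:195136811-195176716. Pax5 lies at chr4:44524757-44710487, Cd79a at chr7:24897381-24902197 and Cd22 at chr7:30865402-30880342. Ebf1 lies at chr11:44617317-45008091, Cd79b at chr11:106311341-106314762, Ly6d at chr15:74762056-74763620 and Ms4a1 at chr19:11249675-11266241. Fcmr, Cd79a and Ebf1 are on the plus strand and the other members on the minus strand. Ms4a1, Cd22 and Ebf1 overlap annotated genes on the other strand and Pax5 overlaps genes on both. The counting did not use strand, so reads in shared exons could not be told apart and were counted to neither gene.

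RefSeq promoter windows (GRCm38.p6) were at hand for 6 of the 9 members, namely Cd79a, Cd22, Pax5, Ebf1, Cr2 and Fcmr. The 250 bases before a start annotated in RefSeq are shown for the 3 members with a window outside annotated exons, since they include both transcription factors and the surface receptor Cr2. The window of Ebf1 lies inside the gene span given above, before a start further in. Capitals mark the E box CANNTG, the motif bound by E2A, a factor that acts with Ebf1 and Pax5, searched on both strands. The windows are chr4:44710695-44710944 on the minus strand, chr11:44619978-44620227 on the plus strand and chr1:195176720-195176969 on the minus strand, each written 5′ to 3′.
Pax5: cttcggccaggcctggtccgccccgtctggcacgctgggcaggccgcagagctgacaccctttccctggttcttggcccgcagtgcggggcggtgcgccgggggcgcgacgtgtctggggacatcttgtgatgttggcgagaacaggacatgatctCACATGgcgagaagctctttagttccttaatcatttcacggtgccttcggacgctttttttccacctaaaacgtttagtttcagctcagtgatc
Ebf1: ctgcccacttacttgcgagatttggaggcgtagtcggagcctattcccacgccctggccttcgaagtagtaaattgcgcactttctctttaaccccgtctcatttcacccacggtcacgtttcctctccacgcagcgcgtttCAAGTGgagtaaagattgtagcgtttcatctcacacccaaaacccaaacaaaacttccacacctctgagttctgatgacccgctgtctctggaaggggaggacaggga
Cr2: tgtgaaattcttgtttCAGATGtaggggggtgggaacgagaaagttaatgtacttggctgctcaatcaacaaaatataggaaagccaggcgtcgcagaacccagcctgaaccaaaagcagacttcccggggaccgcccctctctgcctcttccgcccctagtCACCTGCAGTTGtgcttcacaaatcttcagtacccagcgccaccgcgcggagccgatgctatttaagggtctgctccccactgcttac

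An E box was in 6 of the 7 windows of the 6 members, all but the other window of Ebf1, against 66.2% of the 32851 promoter windows of this length. Starts were at position 157 for Pax5, 143 for Ebf1, and 17, 163 and 169 for Cr2, counted from 1 at the 5′ end. These are matches of letters in 250 bases and say nothing on binding.

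The CD45+CD4- libraries served as the B cell containing reference. All 9 members were measured in all 6 of them, and the mean ranged from 156 CPM for Pax5 to 1437 CPM for Ms4a1. Per kilobase of annotated exon, the order differed. Ly6d was at 1461 CPM per kb and Cd79b at 687 CPM per kb, while Pax5, with the lowest level, was at 17.7 CPM per kb. Cd79a was at 428, 40.8 and 620 CPM in the naive and at 711, 739 and 364 CPM in the tolerant CD45+CD4- libraries. Naive CD45+CD4- replicate 2 was therefore low in Cd79a, although the partner chain Cd79b was at 832 CPM there. Cd79b itself was at 827, 832 and 754 CPM in the naive and at 1255, 1329 and 906 CPM in the tolerant libraries.

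The spleen and graft libraries held 2550698 to 4615283 counted reads, and the DLN libraries, which were run on another sequencer, held 844039 to 1935323. A count of 0 allowed up to 0.65 to 1.18 CPM in the former and 1.55 to 3.55 CPM in the latter, at 3 counts and for counting error only. Foxp3 was at 157 to 632 CPM over the Treg libraries and at no more than 7.73 CPM in the CD4+Foxp3- libraries. Il7r, which encodes CD127, was at 1067 to 1262 CPM in SP/CD127hi against 228 to 335 CPM in SP/CD127-/lo Tregs, without overlap, whereas DLN/CD127hi at 519 to 763 CPM and DLN/CD127-/lo at 252 to 932 CPM overlapped. Ptprc (CD45) was at 2386 CPM or more in all 33 libraries.

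The level of the 9 genes in a Treg library was expressed as a fitted share: the summed counts of the members as a percentage of those expected at the depth of that library from the mean CPM of the 6 CD45+CD4- libraries. In spleen the share was 0.798% ± 0.402 (SD, n = 3) in SP/naive, 0.841% ± 0.298 in SP/CD127-/lo and 1.11% ± 0.864 in SP/CD127hi Tregs. It was 0.633% ± 0.868 in graft Tregs. The graft libraries were at 0.183%, 0.0824% and 1.63%, so that their mean rested on replicate 3 and was 0.133% without it. With the median over the members in place of the sum, the means were lower, at 0.266% in SP/naive, 0.0533% in SP/CD127-/lo, 0.501% in SP/CD127hi and 0.0913% in graft Tregs. By the fitted share these 4 subsets overlapped each other and differed by less than the spread between their libraries.

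In DLN the share was 0.587% ± 0.361 in DLN/naive, 2.42% ± 1.88 in DLN/CD127-/lo (1.33% without replicate 2) and 11.2% ± 6.96 in DLN/CD127hi Tregs (SD, n = 3). The DLN/CD127hi libraries were at 14%, 16.3% and 3.24%, the DLN/CD127-/lo libraries at 1.30%, 4.59% and 1.36%, and the DLN/naive libraries at 0.683%, 0.187% and 0.889%. Every DLN/CD127hi library was above every DLN/naive library, and the lowest DLN/CD127hi library lay below the highest DLN/CD127-/lo library. CD4+Foxp3- T cells of the spleen were at 1.38% ± 0.899 in naive and 0.432% ± 0.179 in tolerant mice. The naive libraries, at 1.73%, 2.06% and 0.365%, overlapped the splenic Tregs, but 2 of them lay above every splenic Treg library, of which the highest was at 1.67%. With the median over the members the means were 0.0508% in DLN/naive, 1.34% in DLN/CD127-/lo and 8.37% in DLN/CD127hi Tregs, and 0.508% in naive and 0.214% in tolerant CD4+Foxp3- T cells. In the order of the mean fitted shares over these 9 T cell subsets, from DLN/CD127hi down to tolerant CD4+Foxp3- cells, each subset overlapped the next. The reference cells were splenic and run on the other sequencer, so for DLN libraries tissue and sequencer cannot be told apart in the absolute share.

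**Figure D1:**
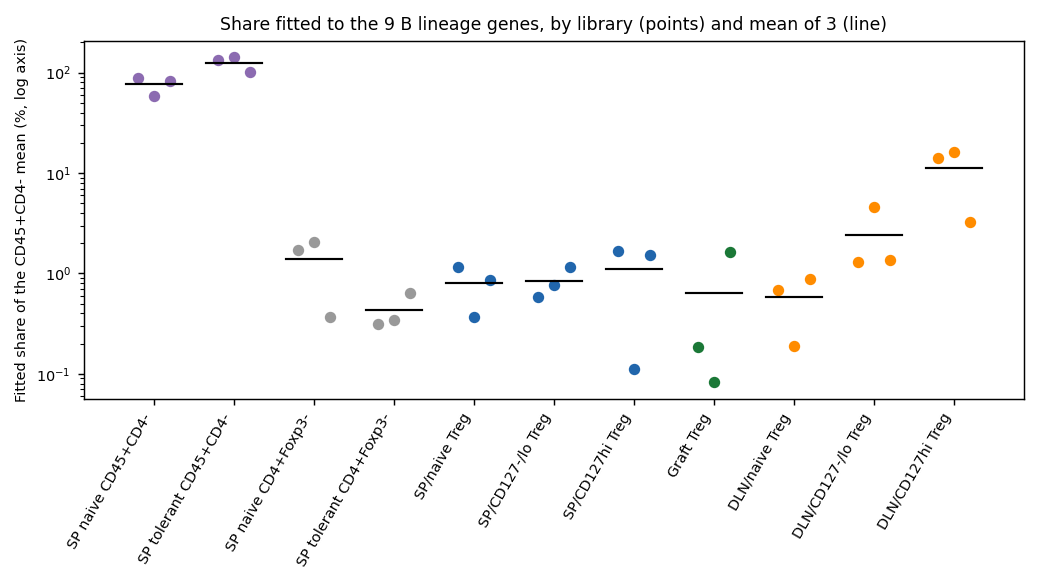
Fitted share of the 9 B lineage genes (percent of the CD45+CD4- mean, log axis) for each library, with points for libraries and a line for the mean of 3. CD45+CD4- libraries were set against the mean of the other 5. DLN/CD127hi Tregs are at 3.24% to 16.3%, and all other Treg libraries are at or below 4.59%.

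The receptor chains were uneven between libraries. Cd79b was at 239, 147 and 119 CPM in DLN/CD127hi Tregs, the only member over 100 CPM in all 3 of these libraries. It was at 70.8, 15.4 and 0 CPM in DLN/CD127-/lo and at 0, 2.28 and 0 CPM in DLN/naive Tregs. In spleen Cd79b was at 28.9, 0 and 49.5 CPM in SP/naive, 23.7, 22.3 and 39.3 CPM in SP/CD127-/lo, and 1.95, 1.21 and 55.4 CPM in SP/CD127hi Tregs, without separation of the subsets. The partner chain did not follow it. Cd79a was at 53.8, 46.4 and 0 CPM in DLN/CD127hi Tregs, and was not counted in any SP/naive library although Cd79b had 109 counts in replicate 1 and 190 counts in replicate 3. In graft Tregs Cd79a was at 0, 5.53 and 0 CPM and Cd79b at 0, 0 and 20.8 CPM, in different libraries.

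Of the transcription factors, Ebf1 was at 153, 73.1 and 40.5 CPM in DLN/CD127hi, 1.55, 75.8 and 24.9 CPM in DLN/CD127-/lo and 15.1, 1.52 and 18.9 CPM in DLN/naive Tregs. Every DLN/CD127hi library was above the DLN/naive libraries, and DLN/CD127-/lo overlapped both. In the 12 spleen and graft Treg libraries Ebf1 did not exceed 2.52 CPM. Pax5, which acts downstream of Ebf1 in B lineage commitment, was low throughout, at 4.68, 15.5 and 2.08 CPM in DLN/CD127hi Tregs and 0 counts in all SP/CD127-/lo and graft libraries. Pax5 had 3 counts or fewer in 17 of the 21 Treg libraries.

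Cr2 was at 220, 329 and 0 CPM in DLN/CD127hi, 18.1, 147 and 0.756 CPM in DLN/CD127-/lo and 0 CPM in all DLN/naive Tregs, which makes it one of the largest and one of the least even members in DLN. It was at 65.6 CPM in graft replicate 3 and 0 in the other graft libraries. Ms4a1, the most abundant member in the reference, was at 16.4, 21.5 and 2.08 CPM in DLN/CD127hi Tregs. Its highest Treg value, 65.4 CPM, was in SP/CD127hi replicate 1, while replicate 2 of that subset had 0 counts. Cd22 had 0 counts in the fewest Treg libraries, 1 of 21, but 3 counts or fewer in 7, as had Cd79b. Cd22 ranged from 6.23 to 26.6 CPM in SP/naive and SP/CD127-/lo Tregs. In DLN/CD127hi Tregs Cd22 was at 23.4, 91.1 and 2.08 CPM.

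Ly6d was at 296, 342 and 69.5 CPM in DLN/CD127hi Tregs, above all libraries of the other Treg subsets, and at 0.517, 0 and 0 CPM in DLN/CD127-/lo Tregs. In DLN/naive Tregs Ly6d was at 32.8, 0 and 41.0 CPM. Fcmr was at 15.2, 122 and 1.04 CPM in DLN/CD127hi Tregs and had 0 counts in the 9 libraries of graft, DLN/naive and DLN/CD127-/lo Tregs. In spleen its highest value was 24.3 CPM, in SP/CD127-/lo replicate 3. Over the 21 Treg libraries Fcmr had 0 counts in 13, Cd79a and Pax5 in 10 each, Ly6d in 9, Cr2 in 8, Ms4a1 in 7, Cd79b in 6, Ebf1 in 4 and Cd22 in 1.

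**Figure D2:**
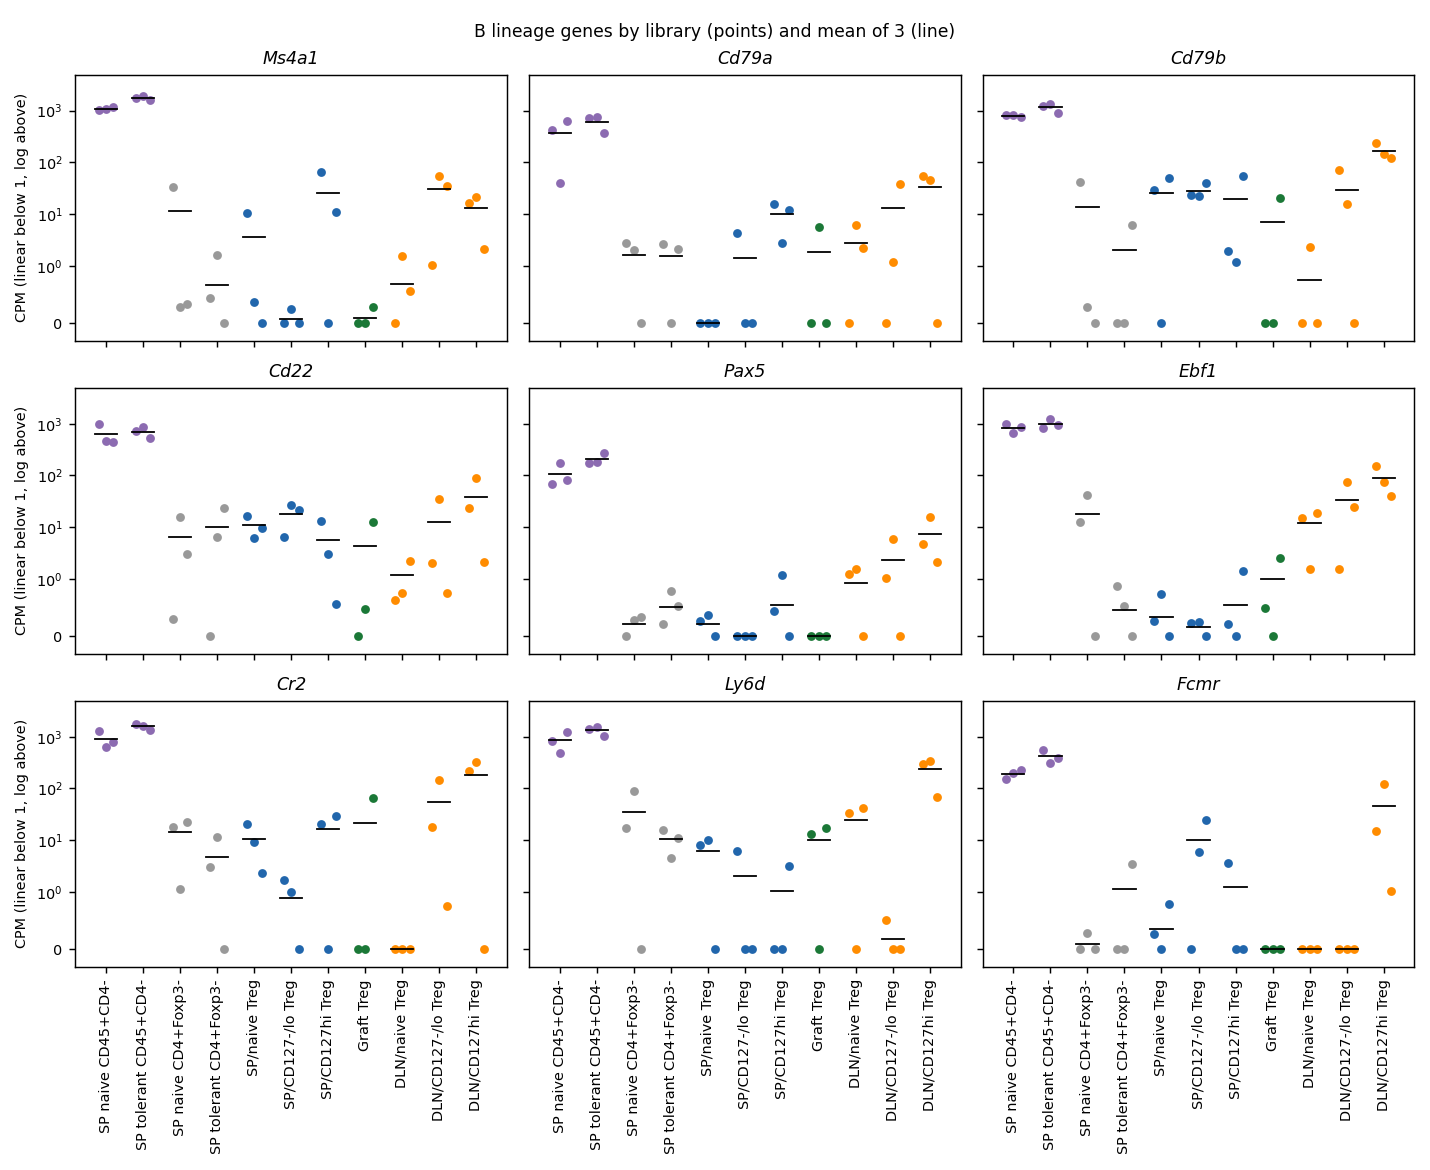
Level of each B lineage gene (CPM, linear below 1 and logarithmic above) in the 3 libraries of each subset (points) with their mean (line). The CD45+CD4- libraries lie at 40.8 CPM or more for every gene, whereas Treg libraries range from 0 to 342 CPM and replicates of a subset often differ by more than the subsets do.

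Between subsets, the fitted log2 difference of all 9 members was above 0 in DLN/CD127hi against DLN/naive Tregs, with a median of 4.06 against 0.40 over all 25347 genes tested. For 6 of 9 members the DLN/CD127hi libraries were all above the DLN/naive libraries, as for 5.59% of all genes. Cd79b, Ebf1 and Ly6d separated with 39 counts or more in every DLN/CD127hi library, while Ms4a1, Pax5 and Fcmr had 2, 2 and 1 counts in replicate 3, at or below the 3 counts that a count of 0 allows. Against DLN/CD127-/lo Tregs, 8 of 9 members were above 0 with a median of 1.77, and 3 of 9 did not overlap, as for 2.51% of all genes. These 3 were Cd79b, Ly6d and, by that 1 count in replicate 3, Fcmr. In spleen, 6 of 9 members were above 0 in SP/CD127hi against SP/naive Tregs with a median of 0.79, and 1 member did not overlap, against 3.21% of all genes. That member was Cd79a, at 15.8, 2.72 and 11.9 CPM against 0 counts. In other comparisons the members were split, with 5 above and 4 below 0 in SP/CD127hi against SP/CD127-/lo (median 1.37), 4 above and 5 below in SP/CD127-/lo against SP/naive (median -0.58), and 4 above and 5 below in graft against SP/naive Tregs (median -1.22). In DLN/CD127-/lo against DLN/naive Tregs 7 were above and 1 below 0, with a median of 2.35. Cr2 was the 1 member that did not overlap in each of the CD127-/lo comparisons with naive Tregs, higher in DLN (as 4.01% of all genes) and lower in spleen (as 6.12%). In DLN this rested on 1 count in DLN/CD127-/lo replicate 3, below the 3 counts that a count of 0 allows. In spleen the nearest libraries had 7 counts (1.67 CPM) in SP/CD127-/lo and 9 counts (2.34 CPM) in SP/naive Tregs. The difference of CD127hi to CD127-/lo Tregs in DLN minus that in spleen was above 0 for 4 members and below 0 for 5, with a median of -0.0085. The comparisons within a tissue share libraries, and no test is given for members in them because the members were chosen with these values known. Medians over all genes departed from 0 by more than 0.1 in DLN/CD127hi (0.40) and DLN/CD127-/lo (0.58) against DLN/naive Tregs, in tolerant against naive CD4+Foxp3- T cells (-0.23), and in the difference between the tissues (-0.47).

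A constant share did not describe the members in most Treg libraries. If a library held the reference pattern at a constant share, each gene would lie near the count expected at that share. Of 189 pairs of gene and Treg library, 144 (76.2%) lay outside the 95% Poisson interval around the expected count, and 43 of the 148 pairs with 5 or more expected counts had 0 counts. The most abundant member held 28.8% to 96.4% of the summed member counts of a Treg library, with a median of 49.4%, against 19.5% to 23.2% in the CD45+CD4- libraries. Reads here carry no molecular identifiers, so the interval covers counting error only. Over all genes, libraries of the same subset also differed beyond it, with a chi-square per degree of freedom of 24.7 to 75.6. For the members around the fitted share it was 6.65 to 126 in Treg libraries, with a median of 41.2. Lying outside the interval is therefore not particular to the members.

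The SD of the log2 ratio of observed to expected count over the 9 members was 1.40 to 4.10 in Treg libraries, with a median of 2.62. CD45+CD4- libraries, each set against the mean of the other 5, gave 0.21 to 1.14 with a median of 0.47, so that the ranges did not overlap. There, 45 of 54 pairs were outside the Poisson interval too, at expected counts of 227 to 6364. CD4+Foxp3- T cells gave 2.30 to 3.28, within the range of the Tregs. Expected counts were low in many Treg libraries, down to 0.385 for Pax5 in DLN/naive replicate 2, where the scale of counting error is itself large.

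The members that stood out changed from library to library. In SP/naive replicate 3, Cd79b had 190 of 239 member counts, while Ms4a1, Cd79a, Pax5, Ebf1 and Ly6d had 0. In SP/CD127hi replicate 1, Ms4a1 had 302 of 562 counts and Ly6d had 0. In graft replicate 3, Cr2 had 234 of 425 counts, and in graft replicate 1, Ly6d had 53 of 55. Cd79b had the highest share of the 9 in 6 Treg libraries, Ly6d in 5, Cd79a in 3, Cr2 and Fcmr in 2 each, and Ms4a1, Cd22 and Pax5 in 1 each.

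DLN/CD127hi replicates 1 and 2 had the lowest SD of the log2 ratio among the Treg libraries, at 1.55 and 1.40, and both had counts for all 9 members. By the Poisson interval 7 of 9 members lay outside in each of them, against 1 of 9 in DLN/naive replicate 2, which had 18 member counts in all. Still, the shares of single genes in replicate 1 ranged from 1.14% for Ms4a1 to 27.2% for Ly6d, and in replicate 2 from 1.5% for Ms4a1 to 40.2% for Fcmr. Ms4a1, the member with the highest level in the reference, was thus the lowest in both. In replicate 3 the SD was 2.84, with Cd79b at 115, Ly6d at 67 and Ebf1 at 39 counts, and Cd79a and Cr2 at 0. Averaged over the 3 libraries, the share was 21.7% for Ly6d, 17.1% for Cd79b, 15.2% for Fcmr, 14.6% for Cr2, 9.65% for Ebf1, 6.91% for Cd79a, 5.82% for Cd22, 4.74% for Pax5 and 0.926% for Ms4a1. Several of these means rested on 1 library. Without replicate 2 the mean was 2.68% for Fcmr, 1.91% for Cd22, 2.16% for Pax5 and 8.74% for Cr2, and without replicate 1 it was 6.16% for Ebf1.

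**Figure D3:**
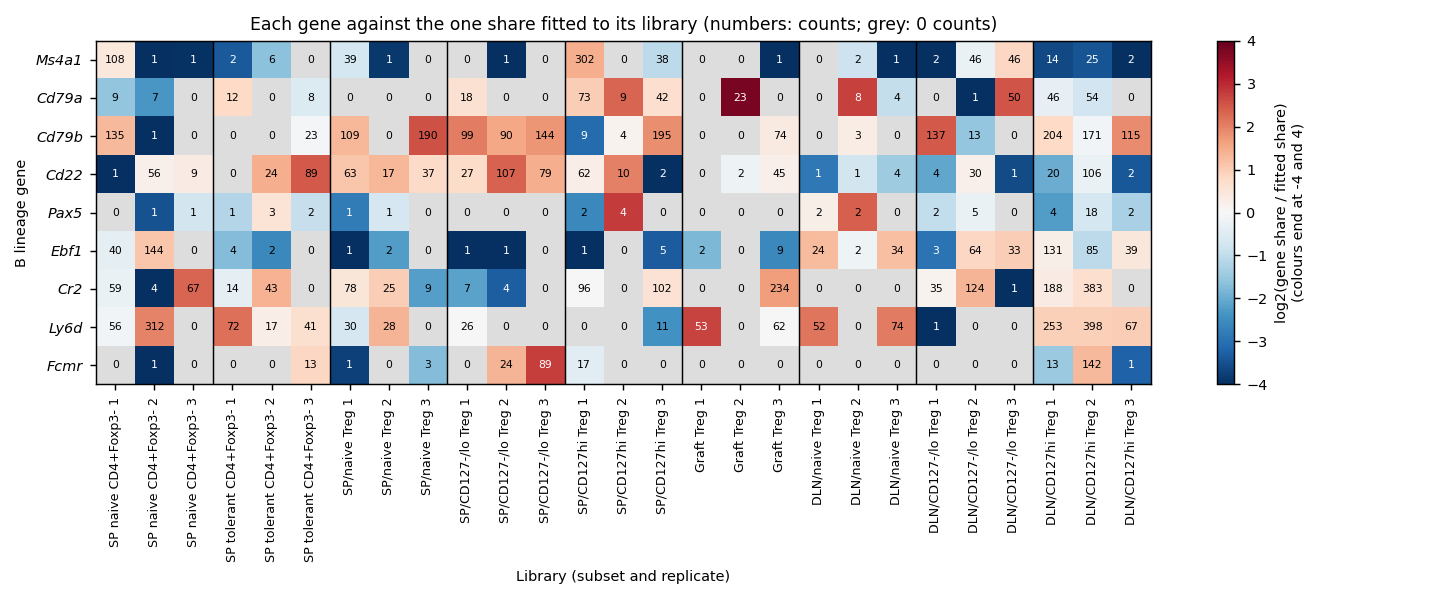
Count of each B lineage gene (numbers) in each T cell library, coloured by the log2 ratio of its share to the share fitted to that library (red above, blue below, grey 0 counts). An even pattern would be near white throughout, whereas every library has red genes beside blue or grey ones.

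Over the 21 Treg libraries the 36 pairs of members correlated in log2 CPM with Pearson's r from 0.03 to 0.69 (median 0.36), as a description of libraries that share subset and depth. Among 17045 other genes, those most like the mean of the members were C230057M02Rik (r = 0.88), Gm44734 (0.87), Iglj3 (0.86), Cd163l1 (0.86) and Cd209b (0.86), followed by Tmem232, B3gnt8, Kir3dl1, Gm12500 and Actl9. Within the 9 DLN libraries r was 0.90 to 0.96 for the 10 genes. Within the 12 spleen and graft libraries it was -0.33 to 0.52 for 6 of them, at 6 counts or fewer in a library, and the other 4 had no counts there. Several were barely detected, with at most 4 counts in a Treg library for C230057M02Rik and at most 2 for Kir3dl1, Gm12500 and Actl9, which had the same counts. None of the 10 was on a list of cell type genes used here. Iglj3, a joining segment of the lambda light chain, was at 8.41 CPM in DLN/CD127hi and 41.0 CPM in CD45+CD4- cells, whereas Cd209b, a lectin of macrophages, was at 90.3 CPM and 0.12 CPM.

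The members were chosen by symbol, with earlier results of these libraries known, so tests on them are no independent evidence. The rule described their levels in Tregs against the mean over all 6 CD45+CD4- libraries. The differences between tolerant and naive mice within the CD45+CD4- and within the CD4+Foxp3- cells were not part of that rule, and in these 2 comparisons the members are given with the quasi-likelihood test of edgeR with Benjamini-Hochberg adjustment over all genes. In CD45+CD4- cells, tolerant against naive, none of the 9 members passed, against 0.0355% of all genes, and none had an unadjusted p under 0.05, as 4.46% of all genes did. The fitted log2 differences were 0.15 for Cd22 to 1.12 for Fcmr. The mean of Ms4a1 was 1783 CPM (SD 165, n = 3) with tolerance and 1092 CPM (SD 90.0) without it, and the libraries did not overlap, with a log2 difference of 0.70 (SE 0.65, adjusted p = 1). For 4 of 9 members (Ms4a1, Cd79b, Cr2 and Fcmr) all tolerant libraries were above all naive ones, as for 3.63% of all genes. The summed level of the T cell list moved the other way, at 58.8% to 74.8% of the CD45+CD4- mean in tolerant and 118% to 152% in naive libraries, as did the CD8 T cell list at 57.4% to 83.7% against 97.7% to 175%. By the same test 1 of 7 genes of the T cell list and 1 of 5 of the Treg list were called lower. The dendritic cell list, at 128% to 170% against 18.9% to 83.9%, and the immunoglobulin constant list, at 105% to 143% against 69.5% to 84.8%, were higher without overlap. Of 35 other B lineage genes, 33 were above 0 and 16 had all tolerant libraries above the naive ones. The part of these lists in the differences of the members was not tested.

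In CD4+Foxp3- T cells, 2 of 9 members passed the test, both lower in tolerant mice, against 0.107% of all genes called and 0.0907% called lower, and 6 of 9 had an unadjusted p under 0.05, against 7.01% of all genes. Of these 6, Fcmr was higher in tolerant mice (log2 difference 2.88), on 13 counts in tolerant replicate 3, and the others were lower. Ebf1 was at 12.4, 41.1 and 0 CPM in naive and 0.869, 0.53 and 0 CPM in tolerant libraries, with a log2 difference of -5.23 (SE 0.85, adjusted p = 2.3e-05). Ms4a1 was at 33.4, 0.285 and 0.341 CPM in naive and 0.435, 1.59 and 0 CPM in tolerant libraries, with a log2 difference of -4.13 (SE 0.81, adjusted p = 0.00173). Both sets of libraries overlapped, and the difference for Ms4a1 rested on naive replicate 1, being 0.77 with an adjusted p of 0.854 without it. Neither passed in a fit to these 6 libraries alone, with an adjusted p of 0.524 for Ebf1 and 0.63 for Ms4a1. Cd79b, at 41.7, 0.285 and 0 CPM in naive and 0, 0 and 6.08 CPM in tolerant libraries, had a log2 difference of -2.91 and an adjusted p of 0.333. Lists of other cells differed between the same libraries. The NK cell list was at 1.15% to 3.54% of the CD45+CD4- mean in tolerant and 6.58% to 15.2% in naive libraries, the monocyte and macrophage list at 3.07% to 8.45% and 0% to 0.663%, the immunoglobulin constant list at 3.44% to 4.13% and 2.32% to 2.93%, and the T cell list at 473% to 512% and 375% to 445%, each without overlap. Gzma of the NK cell list, Hbb-bs of the erythroid list, and Iglc1 and Iglc2, all named after their values were seen, were called lower in tolerant libraries. Their part in the differences of Ebf1 and Ms4a1 was not tested.

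A further list of 35 B lineage genes, none of them members, was set beside the members in the Treg comparisons, with p-values of single genes adjusted over all genes. It was also drawn up with earlier results of these data known, so its counts are a description and no independent support for the members. In DLN/CD127hi against DLN/naive Tregs 5 of 35 were higher and none lower, against 0.951% of all genes called. Against DLN/CD127-/lo Tregs 3 were higher and none lower, against 0.418% of all genes. In SP/CD127hi Tregs 1 was higher than in SP/naive (0.0197% of all genes) and 3 were higher than in SP/CD127-/lo Tregs (0.0907%), with none lower. SP/CD127-/lo against SP/naive Tregs had 0 higher and 2 lower (0.071%), DLN/CD127-/lo against DLN/naive Tregs had 3 higher and 1 lower (0.355%), and graft against SP/naive Tregs had 1 of each (0.13%). In the difference between the CD127hi effect in DLN and in spleen none passed in edgeR, with 8 of 35 at an unadjusted p under 0.05, against 0.118% of all genes called and 7.82% at that unadjusted p. DESeq2 called 4 of the 35 there, and the share of all genes that it called was not computed. By the same test none of the 35 passed in CD45+CD4- cells, with 0 at an unadjusted p under 0.05, or in CD4+Foxp3- T cells, with 10 of 35, against 7.01% of all genes.

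Mef2c, a transcription factor of B cells and myeloid cells, was called in all 4 comparisons of a CD127hi subset within its tissue. It was at 50.3, 170 and 24.9 CPM in DLN/CD127hi, 12.4, 9.48 and 1.51 CPM in DLN/CD127-/lo and 16.4, 0 and 0.555 CPM in DLN/naive Tregs, so that DLN/CD127hi did not overlap the others. The log2 difference was 3.55 (SE 0.81, adjusted p = 0.00539) against DLN/naive and 3.27 (SE 0.80, adjusted p = 0.0236) against DLN/CD127-/lo Tregs. In SP/CD127hi Tregs it was at 2.82, 10.3 and 6.54 CPM, against at most 0.53 CPM in the other splenic Tregs.

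Blk, a kinase of the B cell receptor pathway, was at 19.9, 59.3 and 91.3 CPM in DLN/CD127hi Tregs, above all libraries of DLN/CD127-/lo (0.517, 7.11 and 0 CPM) and DLN/naive Tregs (1.26, 0 and 0 CPM). Its log2 difference was 6.76 (SE 1.40, adjusted p = 0.00127) against DLN/naive Tregs. Ly86, a partner of the receptor CD180 on B cells and myeloid cells, was at 325, 148 and 0 CPM in DLN/CD127hi and 0.517, 7.11 and 0.756 CPM in DLN/CD127-/lo Tregs, with a log2 difference of 5.89 (SE 1.03, adjusted p = 6.76e-05). Here the libraries overlapped, since replicate 3 had 0 counts. In spleen Ly86 was at 16.4, 38.9 and 2.08 CPM in SP/naive and 0 counts in all SP/CD127-/lo Tregs, the lowest adjusted p of the list at 9.85e-06. Bank1, a B cell scaffold protein, was also lower there, at 1.67, 0 and 0.546 CPM against 16.2, 12.5 and 14.1 CPM.

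The other genes called higher in DLN/CD127hi than in DLN/naive Tregs were Fcer2a, at 14, 16.3 and 0 CPM, and Bcl11a, at 50.3, 41.3 and 2.08 CPM. Swap70, a signalling adaptor of B cells, was the gene called lower in DLN/CD127-/lo than in DLN/naive Tregs, at 3.1, 23.7 and 0.756 CPM against 111, 135 and 42.2 CPM, with an adjusted p of 0.0362 that rose to 0.14 at most when 1 library was left out (DLN/naive replicate 1, DLN/CD127-/lo replicate 1 or 3). Swap70 was also counted in all spleen and graft Treg libraries, at 13.7 to 84.7 CPM, against at most 19.1 CPM in CD4+Foxp3- T cells. Graft Tregs had Ly86 at 0.243, 0 and 0.28 CPM, lower than SP/naive Tregs.

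Several calls of the list ended when 1 library was left out. That of Mef2c against DLN/naive Tregs ended without DLN/naive replicate 2 or 3 or DLN/CD127hi replicate 2, with an adjusted p of 0.0534 to 0.067, and that against DLN/CD127-/lo Tregs without DLN/CD127-/lo replicate 2 or 3 or DLN/CD127hi replicate 2 (0.0734 to 0.189). Against SP/naive Tregs it ended without SP/naive replicate 2 or 3 (0.194 and 0.319). The call of Blk against DLN/CD127-/lo Tregs (adjusted p = 0.0393) ended without DLN/CD127-/lo replicate 1 or 3 or DLN/CD127hi replicate 3 (0.0838 to 0.158). That of Ly86 against DLN/naive Tregs (adjusted p = 0.0455) ended without DLN/naive replicate 1 or 2 or DLN/CD127hi replicate 1 (0.201 to 0.421), and that of Bank1 in SP/CD127-/lo against SP/naive Tregs (adjusted p = 0.0201) without SP/CD127-/lo replicate 2 or 3 (0.156 and 0.234).

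Other calls rested on 1 library. In DLN/CD127-/lo Tregs Fcer2a, the low-affinity IgE receptor, was at 0, 52.1 and 0 CPM and Bcl11a, a transcription factor of early lymphocytes, at 1.03, 154 and 0 CPM, and neither was higher than in DLN/naive Tregs without replicate 2. Cd24a was at 0.517, 3.55 and 87.7 CPM, with an adjusted p of 0.5 without replicate 3. Ciita, the MHC class II transactivator, was at 0, 15.6 and 0 CPM in graft Tregs, with no count in the other libraries of that subset or in SP/naive Tregs. Siglecg, an inhibitory lectin, was at 5.42, 0.604 and 0 CPM in SP/CD127hi Tregs and had an adjusted p of 0.798 without replicate 1. Its call also ended without any 1 of the SP/CD127-/lo libraries (adjusted p 0.208 to 0.346), as did that of Ciita without any 1 of the SP/naive libraries (0.145 to 0.228). In fits to the compared libraries alone, none of the 35 genes was called in any comparison of Tregs. With a stricter filter on low counts, described below, 1 call was left, in DLN/CD127hi against DLN/naive Tregs. The calls thus depended on the libraries in the fit and on the filter, and the cause of either loss was not tested.

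Other lists moved with the members. In DLN/CD127hi Tregs the summed level of 6 MHC class II genes was 21.3% to 34.5% of the CD45+CD4- mean, against 3.81% to 10.5% in DLN/CD127-/lo and 0.65% to 8.05% in DLN/naive Tregs. The 8 immunoglobulin constant genes were at 10.8% to 46.6%, 4.37% to 11.1% and 3.25% to 5.14% in the same order, the first overlapping the second. Ighm, the IgM heavy chain, was at 240 to 1424 CPM over all Treg libraries, also where the members were near 0. Igkc, the kappa light chain, was at 547 to 5537 CPM in DLN/CD127hi and at most 399 CPM in the other Treg libraries.

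Several lists of other cell types were also high in DLN/CD127hi Tregs. The 8 monocyte and macrophage genes were at 132% to 182% of the CD45+CD4- mean, against 18.3% to 165% in DLN/CD127-/lo and 0.882% to 70.1% in DLN/naive Tregs, with Lyz2 at 643 to 825 CPM. The 5 plasma cell genes were at 12.3% to 147%, against at most 14.3% in the other Treg libraries, and Tnfrsf17, a plasma cell receptor, had 0 counts. The dendritic cell list was at 7.56% to 115% and the CD8 T cell list at 0.401% to 52.1%. In the other Treg libraries they were at 0.498% to 60.6% and 0% to 14.6%. The NK cell list was at 0% to 12.6%, against 0% to 17.2% in the other Treg libraries, with Gzma and Prf1 at 0 counts in all 3 libraries and Klre1 at 0 to 59.7 CPM. The neutrophil list was at 0% to 1.84%, against at most 0.391% elsewhere, with Retnlg and S100a9 at 0. S100a8 of that list was at 19.9 CPM in 1 DLN/CD127hi library and 0 in the other 2 and in all other DLN Tregs, and was called higher against DLN/naive (adjusted p = 0.00357, edgeR) and DLN/CD127-/lo Tregs (adjusted p = 0.0112). The erythroid list was at 9.97% to 84.8%, below its highest values of 1832% in SP/CD127hi and 1093% in SP/CD127-/lo Tregs. The T cell list was at 361% to 410.5% and the Treg list at 3871% to 9857%, within the range of the other Treg subsets for the T cell list. Against DLN/naive Tregs all 7 T cell and all 5 Treg genes had log2 differences below 0, with medians of -0.23 and -0.28. Against DLN/CD127-/lo Tregs 5 of 7 and 3 of 5 were below 0. Across the DLN/CD127hi libraries the members were lowest in replicate 3, as were the plasma cell, MHC class II and dendritic cell lists, while the macrophage list was not. Their part in the level of the members was not tested.

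**Figure D4:**
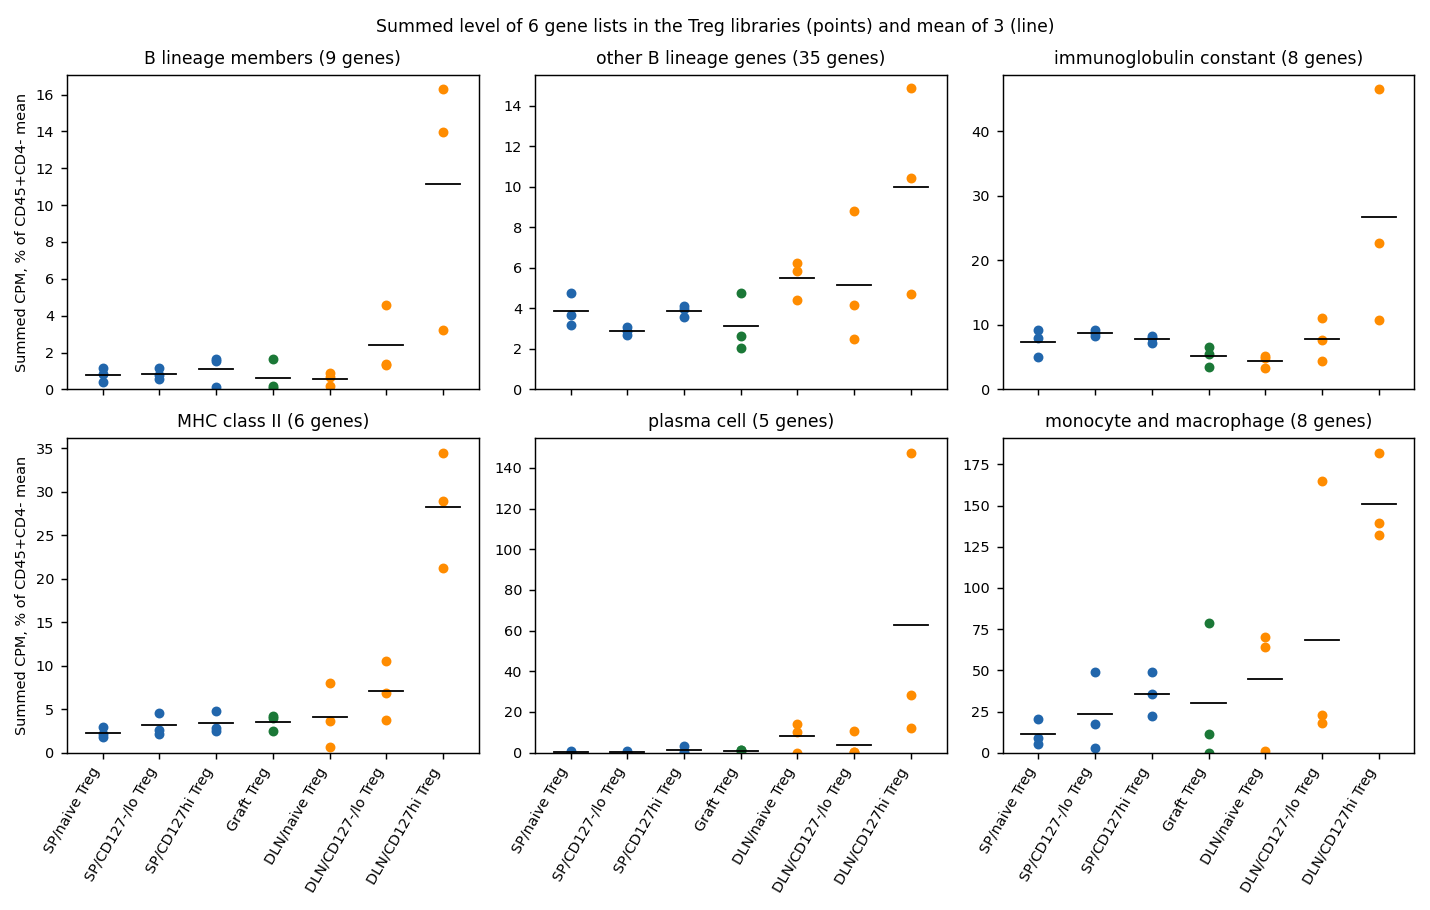
Summed CPM of 6 gene lists in each Treg library as a percentage of the mean of the 6 CD45+CD4- libraries (points), with the mean of 3 (line). DLN/CD127hi Tregs have the highest mean for each list, with 3.24% to 16.3% for the 9 members and 132% to 182% for the monocyte and macrophage genes.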

How the data were processed

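Sorted cells from spleen, graft and lymph nodes of DEREG mice were profiled by bulk RNA-seq (SMART-Seq v4, Nextera XT), with DLN libraries on a MiSeq and the others on a NextSeq 500. The deposited files hold read counts per Ensembl gene in the layout of STAR, made by the authors after Trim Galore against mm10 with EGFP added, without strand, and with versions not given in the sources used here. The methods name HTSeq for counting. Raw counts of all 31054 features were analysed here, and 42 features had no symbol in GENCODE vM21. Reads counted to no feature (16.6% to 60.4% of reads that fell in a gene, in none or in several) were left out.

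The 9 members and all lists were chosen with earlier results of these data known. The 25347 genes that reached 1 CPM anywhere were fitted with the quasi-likelihood test of edgeR 4.0.16 (R 4.3.3) and TMM factors in 1 model of all 33 libraries and 11 subsets, with an adjusted p under 0.05 over all genes as the call. The scripts were tested on simulated data. Fitted shares used CPM of library totals. Named beside the members were up to 5 called genes of the B lineage list per comparison with the largest log2 differences, the 2 most abundant genes of some other lists, label checks and the 10 genes most like the members. The values of 1 gene among the label checks are not reported here. Alternatives were the likelihood ratio test, DESeq2 1.42.0, RLE, other filters, subsets of libraries, a replicate block, and leaving out each library. Replicates were separate libraries that differed beyond sampling noise. Since the naive libraries of a subset may come from the same pool of mice, p-values measure only the spread between libraries, which may be technical.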

Additional observations from a re-analysis of the deposited data

How the results depend on the processing

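In fits to the compared libraries alone, the B lineage genes called fell to 0 in CD4+Foxp3- T cells and in the 7 Treg comparisons. When 3 libraries had to reach 10 counts they fell to 0 in these, except for 1 in DLN/CD127hi against DLN/naive Tregs. The likelihood ratio test of edgeR called 1 in CD4+Foxp3- T cells, 0 in SP/CD127hi against SP/naive and 1 in SP/CD127-/lo against SP/naive Tregs. DESeq2 called 1, 0 and 4 there, 1 in DLN/CD127-/lo against DLN/naive, 5 in graft against SP/naive Tregs and 4 in the difference between DLN and spleen. Without a filter on low counts 6 were called in CD4+Foxp3- T cells, 5 in SP/CD127hi against SP/CD127-/lo, 8 in DLN/CD127hi against DLN/naive and 5 in graft against SP/naive Tregs, and 1 in the difference between DLN and spleen. The first 2 settings also use fewer libraries or fewer genes, and the causes of these shifts were not tested.

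Replicate numbers did not pair the libraries, with correlations of same-numbered deviations of -0.08 to 0.06, and every library correlated best with its own number in 1 of 9 comparisons. With the replicate block 4 genes were called in CD4+Foxp3- T cells, 5 in SP/CD127hi against SP/CD127-/lo, 5 in graft against SP/naive Tregs and 1 in the difference between DLN and spleen, and Cd22 in CD45+CD4- cells changed sign at -3.7e-05.

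Leaving out 1 library at a time, the count ranged from 2 to 7 in CD4+Foxp3- T cells, 0 to 1 in SP/CD127hi and 1 to 3 in SP/CD127-/lo against SP/naive, 1 to 3 in graft against SP/naive, 2 to 6 in SP/CD127hi against SP/CD127-/lo, 3 to 9 in DLN/CD127hi and 2 to 6 in DLN/CD127-/lo against DLN/naive, 1 to 4 in DLN/CD127hi against DLN/CD127-/lo Tregs, and 0 to 3 in the difference between DLN and spleen. It stayed at 0 in CD45+CD4- cells. The log2 difference ranged from -0.079 to 0.60 for Cd22 in CD45+CD4- cells. In CD4+Foxp3- T cells it ranged from -5.44 to 0.77 for Ms4a1, -0.75 to 0.42 for Cd79a, -8.43 to 3.17 for Cd79b, -1.27 to 2.33 for Cd22, -2.49 to 0.17 for Ly6d and -1.84 to 4.73 for Fcmr, and for Bcl11a in DLN/CD127-/lo against DLN/naive Tregs from -0.11 to 6.77.

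The median over the members in place of the fitted share gave 0.214% in tolerant CD4+Foxp3- T cells, 0.266% in SP/naive, 0.0533% in SP/CD127-/lo and 0.0508% in DLN/naive Tregs, and was also below the fitted share in the other 5 subsets, by less than 1 SD. TMM factors, naive or tolerant reference libraries alone, and leaving out Fcmr moved no fitted share and not the spread around a constant share by more than 1 SD. Depth limited the DLN libraries most, where a count of 0 allowed up to 3.55 CPM.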
